A study of Penicillium oxalicum with 9 samples.

Results

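Gene levels on cellulose were compared between 2 deletion strains of Penicillium oxalicum, a filamentous fungus whose secreted enzymes break plant cell walls down to sugars. The strains were dPoClrC, labelled as a deletion of PoClrC, and dCA, labelled as a deletion of CA, a name that the labels do not explain. The comparison holds the 6 RNA sequencing libraries of these strains out of 9 in all, 3 biological replicates per strain, and all 9786 genes of the deposited table. The other 3 libraries, from a strain labelled as a deletion of PoflbC (dPoflbC), entered the fit to share its estimate of the spread.

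Every strain was cultured as mycelia at 30 °C with shaking at 200 rpm in Vogel's medium, first with 2% glucose for 22 h, next without a carbon source for 2 h and last with 2% cellulose for 4 h. The labels name neither the parent strain nor the number of clones behind each deletion. No culture without a deletion was analysed here, so a difference does not tell which strain departed from the undeleted state. The deposited descriptions hold no gene named clrC, flbC or CA, and the deletions could therefore not be checked in the libraries.

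Cellulose is cut inside its chains by endoglucanases and from its ends by cellobiohydrolases, lytic monooxygenases oxidise it at the surface, and beta-glucosidases split the released cellobiose to glucose. In filamentous fungi the activators XlnR and ClrB turn these genes on, while CreA, the repressor of carbon catabolite repression, holds them down when glucose is present. Such fungi also switch their central metabolism, amino acid use and asexual development with the carbon source.

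Read totals were similar in the libraries, at 6.74 to 6.99 M reads in genes (M, 1e+06) in dPoClrC and 6.49 to 7.47 M in dCA. A count of 0 allows up to 3 reads, which came to 0.401 to 0.462 reads per M reads, for counting error only. In a principal component analysis of the 6 libraries the first component held 79.6% of the variance and separated the strains. dCA replicate 2 lay farther out on it, at -64.8, against -23.5 and -31.8 for the other dCA replicates and 37.9 to 42.9 for dPoClrC. The mean chi-square per gene between dCA replicate 2 and the other dCA replicates was 183 and 167, against 8.43 to 27.9 for the other pairs within these strains. Scaling factors (TMM, which sets most genes equal) were 1.03, 0.988 and 1.01 in dPoClrC and 0.906, 0.680 and 0.869 in dCA. Levels below are RPKM (reads per M reads and per kilobase of coding length) before this scaling, while log2 fold changes (dPoClrC over dCA) are after it. The median log2 fold change of all genes was 0.0017 with this scaling and 0.30 without it. Results that rest on dCA replicate 2 are given with and without it.

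In dPoClrC 494 genes were higher and 638 lower than in dCA, out of 8681 tested, which is 5.69% and 7.35% of all genes (13% in both directions). A gene was called at an adjusted p under 0.05 (edgeR quasi-likelihood test, Benjamini-Hochberg over all genes tested) and a log2 fold change of at least 1 in size; at any fold, 37.8% of the genes were under that p. The median change of a called gene was 1.52 among the higher and -1.69 among the lower. Levels of the 2 strains did not overlap in 483 of the 494 higher and 631 of the 638 lower genes, beside 24.4% and 26.3% of all genes tested. Without scaling 887 genes were higher and 454 lower, which moved the higher genes to 66.1% of the calls, against 43.6% with scaling, and limma on log2(RPKM + 1) gave 760 and 413. Without dCA replicate 2 the counts were 416 and 507. On either side of the threshold lay PDE_01662 at 1.001 and PDE_03897 at 0.99977 among higher genes, and PDE_04796 at -1.0005 and PDE_08077 at -0.998 among lower genes.

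Few genes were read almost only in one of the strains. PDE_01542, whose KEGG entry is the autophagy receptor next to BRCA1 gene 1 protein, had 6091, 5507 and 5676 reads in dPoClrC and 1, 0 and 0 reads in dCA. Its ratio per M reads was 17847 (exact 95% binomial interval 3203 to 704956, for counting error only), and dPoflbC had 22123 reads. The gene was thus read in both other strains and nearly absent from dCA. PDE_09192, which has no description, had 0, 0 and 2 reads in dPoClrC and 3958, 1963 and 3989 reads in dCA, with 130 reads in dPoflbC. Its ratio was 4796 in the other direction (interval 1327 to 39607). PDE_09023, also undescribed, had 0 reads in each dPoClrC library and 601, 1076 and 853 in dCA, so it was at least 816-fold lower in dPoClrC against a floor of 3 reads over the strain. PDE_09233 had 0 reads in dPoClrC and 241, 3 and 62 in dCA (at least 98.7-fold lower), and none in dPoflbC. The dCA reads of the last gene came mostly from replicate 1.

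**Figure D1:**
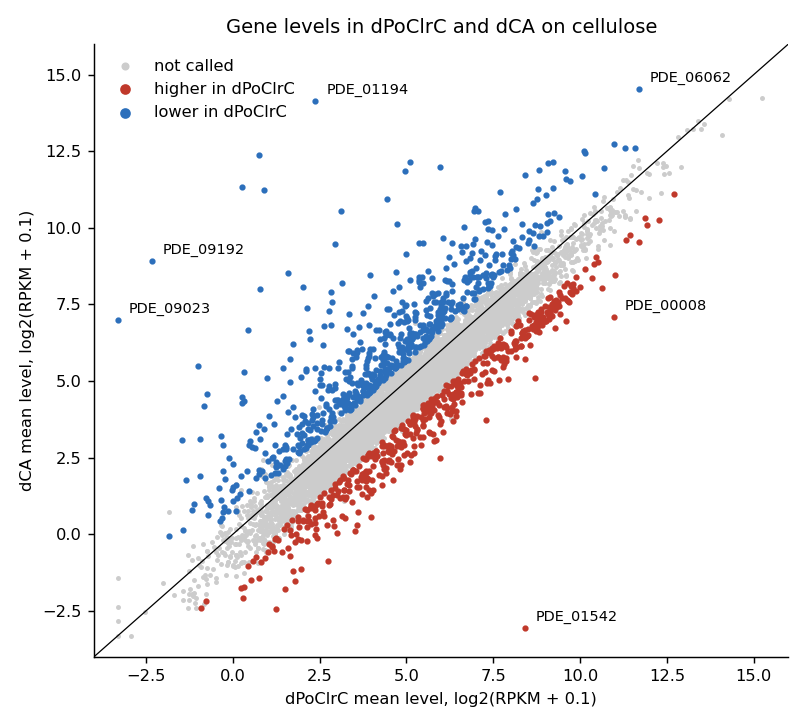
Mean level of each of the 8681 tested genes in dPoClrC (x axis) and dCA (y axis), as log2(RPKM + 0.1) over 3 libraries each. Red points are the 494 genes called higher in dPoClrC and blue points the 638 called lower. PDE_01542 lies right of the middle near the floor of dCA, and PDE_09192, PDE_09023 and PDE_01194 lie at the upper left.

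More cellulases were lower than higher in dPoClrC. Of 18 endoglucanases, cellobiohydrolases and cellulose monooxygenases tested, 8 fell, 1 rose and 9 were not called. The median change was -0.81, against 0.0017 over all genes. The share that fell was 44.4%, against 7.35% of all genes, and the share that rose, 5.56%, was near their 5.69%. The falls covered both cellobiohydrolases with a family name and the 4 endoglucanases with one, and the gene that rose was a monooxygenase. The summed reads of the list made up 0.322, 0.424 and 0.458% of the dPoClrC libraries and 0.642, 1.24 and 0.883% of the dCA libraries.

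Cel7A-2 and Cel6A, cellobiohydrolases that release cellobiose from chain ends, showed the widest gap among the cellulases. Cel7A-2 (PDE_07945) stood at 91.0, 143 and 133 RPKM in dPoClrC and 558, 2935 and 982 RPKM in dCA, and its log2 fold change was -4.05 ± 0.66 (SE; adjusted p = 0.00135). Cel6A (PDE_07124) stood at 35.9, 40.3 and 53.8 RPKM in dPoClrC and 142, 578 and 299 RPKM in dCA (-3.39 ± 0.54, adjusted p = 0.00122). For both genes every dCA library was above every dPoClrC library, and dCA replicate 2 was the highest. Without that library the changes were -2.83 for Cel7A-2 and -2.53 for Cel6A, and both stayed called.

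The endoglucanases, which cut within the chain, differed less. Cel7B (PDE_07929) had 311, 453 and 490.2 RPKM in dPoClrC and 872, 1234 and 1181 RPKM in dCA (-1.73 ± 0.33, adjusted p = 0.00315). Cel45A (PDE_07928) had 407, 666 and 617 RPKM in dPoClrC and 1005, 1341 and 1243 RPKM in dCA (-1.42 ± 0.29, adjusted p = 0.00401). Neither gene overlapped between the strains. Cel5A (PDE_00507) had 182, 201 and 176 RPKM in dPoClrC and 279, 659.9 and 541 RPKM in dCA (-1.78 ± 0.37, adjusted p = 0.00476). Cel5C (PDE_09969) had 141, 103 and 107 RPKM in dPoClrC and 204, 550.2 and 412 RPKM in dCA (-2.11 ± 0.41, adjusted p = 0.00325). In this pair dCA replicate 1 came closest to the dPoClrC libraries. PDE_09226, a putative endoglucanase, had 65.0, 123 and 151 RPKM in dPoClrC and 229, 418 and 417 RPKM in dCA (-1.997, adjusted p = 0.00309). PDE_05193, another, was barely expressed, with 0.153, 0.886 and 1.63 RPKM in dPoClrC and 2.23, 2.51 and 3.18 RPKM in dCA (-1.85, adjusted p = 0.0166), and it was no longer called without dPoClrC replicate 2.

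Not every cellulase followed. The most abundant member, putative endoglucanase PDE_09267, had 862, 1157 and 1332 RPKM in dPoClrC and 1181, 844 and 1134 RPKM in dCA, and its change of -0.21 was not called (adjusted p = 0.397). The monooxygenase Cel61A (PDE_05633) had 6.73, 34.7 and 45.5 RPKM in dPoClrC and 37.6, 18.2 and 26.4 RPKM in dCA (-0.19, adjusted p = 0.785). Levels of both genes overlapped between the strains, and dPoClrC replicate 1 held the lowest value of the dPoClrC libraries in each. A second monooxygenase, PDE_06768, rose, with 26.5, 28.7 and 28.3 RPKM in dPoClrC and 9.56, 5.26 and 8.16 RPKM in dCA (1.58 ± 0.20, adjusted p = 0.000337). The other 7 members were not called. Their changes were -0.87 (PDE_01261) and -0.75 (PDE_06439) at the low end. Between lay -0.03 (PDE_03711), 0.09 (PDE_00698) and 0.31 (PDE_09014), and at the high end 0.61 (PDE_05445) and 0.76 (PDE_02886). PDE_05445, a putative cellobiohydrolase, had 0.763, 1.68 and 1.796 RPKM in dPoClrC and 0.905, 0.298 and 1.08 RPKM in dCA. PDE_02886 was annotated as a xyloglucan-specific endoglucanase, and whether it cuts cellulose was not tested.

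Beta-glucosidases, the last step to glucose, held a single call. The share that fell, 8.33% of those tested, was near the 7.35% of all genes. Of 13 listed, 12 were tested, 1 fell and none rose in edgeR or DESeq2 (1 rose with limma on log2(RPKM + 1), and 3 were higher at an unadjusted p under 0.05), and the median change was -0.05. BGL1 (PDE_02736) was the one that fell, with 120.0, 127 and 163 RPKM in dPoClrC and 187, 328 and 218 RPKM in dCA (-1.21 ± 0.30, adjusted p = 0.011). The strains did not overlap, but the call ended without dCA replicate 2, at -0.74, and without scaling, at -0.84. BGL2 (PDE_00579), the most abundant, had 373, 417 and 571 RPKM in dPoClrC and 556, 647 and 697 RPKM in dCA, and its change of -0.81 was under the fold threshold (adjusted p = 0.0216). The other 10 tested members lay between -0.65 (PDE_09535) and 0.96 (PDE_02905), and PDE_02413 was too low to be tested.

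**Figure D2:**
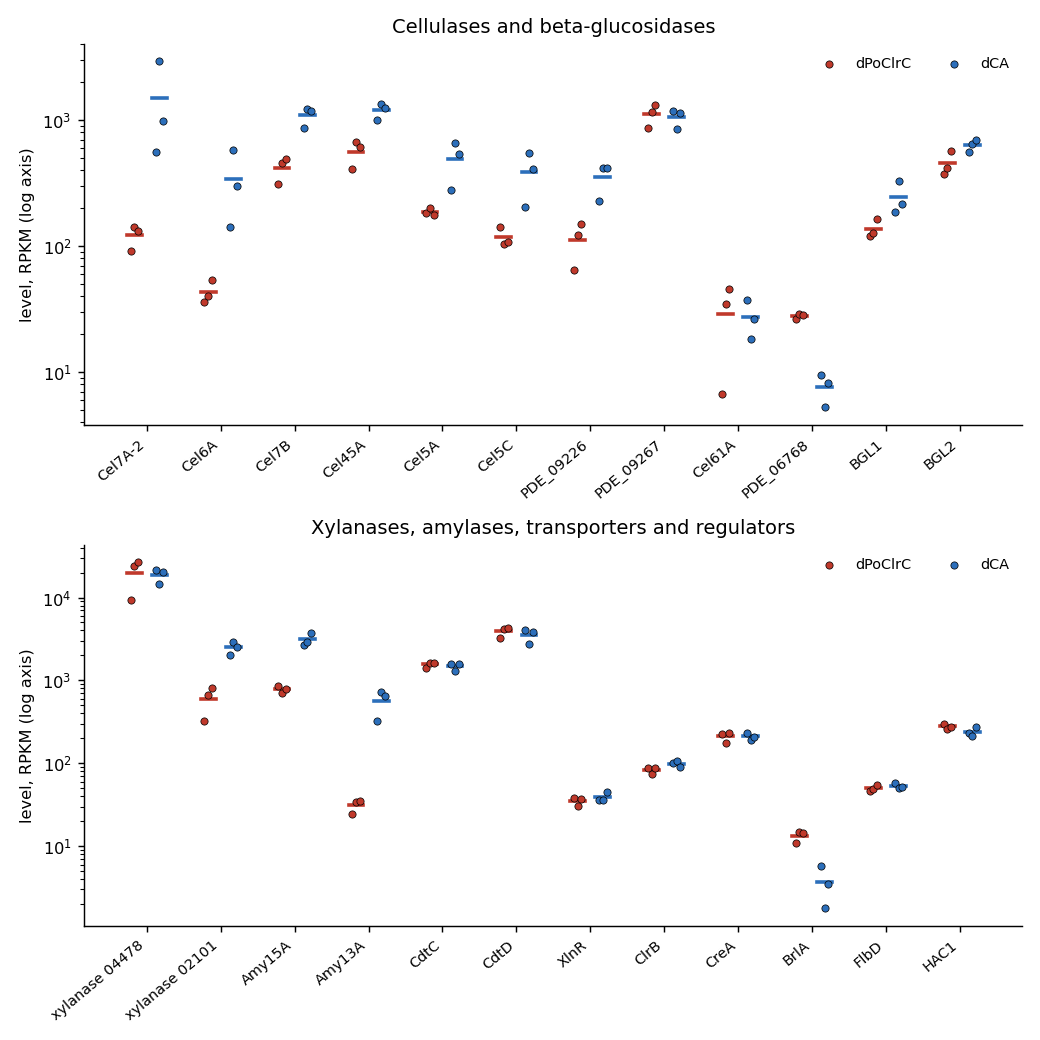
Level in each library of 24 genes in dPoClrC (red, left of each pair) and dCA (blue, right), in RPKM on a log axis; points are the 3 libraries and bars their means. Cel7A-2, Cel6A and Amy13A show the widest gaps, while Cel61A, the transporter CdtD and the xylanase PDE_04478 overlap between the strains.

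Hemicellulases, which open the xylan and mannan around cellulose, held more lower than higher genes with scaling. Of 80 listed, 76 were tested, 12 fell and 4 rose, and the median change was -0.08. The share that fell was 15.8%, against 7.35% of all genes. The share that rose, 5.26%, was near the 5.69% of all genes. PDE_06438, a putative mannanase, fell most, with 7.51, 5.40 and 4.28 RPKM in dPoClrC and 24.7, 43.4 and 46.2 RPKM in dCA (-3.08 ± 0.31, adjusted p = 9.89e-05). Xylanase PDE_02101 had 322, 666 and 806 RPKM in dPoClrC and 2015, 2939 and 2548 RPKM in dCA (-2.41 ± 0.35, adjusted p = 0.000739). The dCA levels were above all of dPoClrC in both genes. Arabinofuranosidase PDE_07585, which removes arabinose side chains, had 19.1, 29.6 and 31.5 RPKM in dPoClrC and 159, 88.1 and 111 RPKM in dCA (-2.44, adjusted p = 6.86e-05). PDE_05342, a putative carbohydrate acetylesterase, changed by -1.81 (adjusted p = 0.00241). The most abundant hemicellulase, xylanase PDE_04478, had 9405, 24041 and 26560.5 RPKM in dPoClrC and 21230.3, 14744 and 20052 RPKM in dCA and was not called (-0.19, adjusted p = 0.684). Its lowest value was again dPoClrC replicate 1, well under the other libraries of that strain. The counts of this list moved with the settings, to 8 fallen and 2 risen without dCA replicate 2 and to 7 fallen and 12 risen without scaling.

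Pectinases showed no common direction. Of 27 listed, 24 were tested, 3 rose and 2 fell, and the median change was 0.20. The shares were 12.5% and 8.33%, against 5.69% and 7.35% of all genes. Exopolygalacturonase PDE_06891 (1.77, adjusted p = 0.000274) and pectin lyase PDE_07259 (1.37, adjusted p = 0.00266), which both cut the pectin backbone, were among those that rose. Rhamnogalacturonase PDE_05931 (-1.47) and alpha-L-rhamnosidase PDE_06451 (-1.30) fell. The most abundant, pectate lyase PDE_06068, was not called (0.73, adjusted p = 0.0243).

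Starch-degrading enzymes were lower in dPoClrC too. Of 14 tested, 5 fell and 1 rose, and the median change was -0.35. The shares were 35.7% and 7.14%, against 7.35% and 5.69% of all genes. Amy13A (PDE_01201), the secreted alpha-amylase, had 24.6, 34.1 and 35.3 RPKM in dPoClrC and 319.5, 722 and 651 RPKM in dCA (-4.53 ± 0.42, adjusted p = 6.51e-05). Glucoamylase Amy15A (PDE_09417), which frees glucose from chain ends, had 865, 697 and 778 RPKM in dPoClrC and 2705, 2936 and 3707 RPKM in dCA (-2.32 ± 0.24, adjusted p = 0.000111). Both genes separated the strains in every library, and neither rested on dCA replicate 2. PDE_01354, a protein with starch- and chitin-binding domains, had 694, 850.3 and 942 RPKM in dPoClrC and 3266, 2272 and 3291 RPKM in dCA (-2.12, adjusted p = 2.81e-05). A second glucoamylase, PDE_05527 (-1.18), and alpha-glucosidase PDE_03966 (-1.004) lay close to the threshold, and neither was called without scaling, when 3 members fell. Alpha-glucosidase PDE_02648 rose (1.32, adjusted p = 0.00116).

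Sugar transporters did not follow the enzymes down. Of 14 tested, 3 rose and none fell in edgeR, DESeq2 or limma (3 were lower at an unadjusted p under 0.05), and the median change was -0.18. The share that rose was 21.4%, against 5.69% of all genes, and 7.35% of all genes fell. The cellodextrin transporters, which carry cellobiose and longer fragments into the cell, were not called. CdtC (PDE_00607) had 1426, 1602 and 1643 RPKM in dPoClrC and 1596, 1307 and 1599 RPKM in dCA, a change of -0.25 (adjusted p = 0.354). CdtD (PDE_00753), the most abundant transporter, had 3274, 4226 and 4261 RPKM in dPoClrC and 4063, 2775 and 3848 RPKM in dCA (-0.15, adjusted p = 0.541), and CdtG (PDE_09395) was at a log2 change of -0.24 (adjusted p = 0.256). Those that rose were annotated as symporters of alpha-glucosides or of an unnamed sugar. PDE_06184, an alpha-glucoside symporter, had 14.5, 13.7 and 14.2 RPKM in dPoClrC and 4.30, 2.09 and 3.32 RPKM in dCA (1.84, adjusted p = 4.62e-05). PDE_01853, of the same annotation (1.25), and PDE_03140, a sugar symporter (1.26), rose less. PDE_03140 was barely expressed, with 1.41, 1.53 and 1.54 RPKM in dPoClrC and 0.549, 0.321 and 0.636 RPKM in dCA. Limma called it neither on log2(RPKM + 1) (0.74) nor on log2(RPKM + 5) (0.24). The other 8 lay between -0.65 (PDE_06576) and 0.93 (PDE_00197) and were not called.

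Described regulators of these enzymes were not called, although 4 of 8 in the list were lower at an unadjusted p under 0.05. XlnR (PDE_07674), the activator of xylanase and cellulase genes, had 37.9, 30.6 and 36.7 RPKM in dPoClrC and 35.9, 35.8 and 44.6 RPKM in dCA (-0.46, adjusted p = 0.0151). ClrB (PDE_05999), the cellulase activator, had 87.0, 74.7 and 88.2 RPKM in dPoClrC and 101, 105 and 91.1 RPKM in dCA (-0.58, adjusted p = 0.0234). For both the adjusted p was under 0.05 and the change under the fold threshold. CreA (PDE_03168) had 226, 176 and 234 RPKM in dPoClrC and 235, 193 and 210.1 RPKM in dCA (-0.32, adjusted p = 0.0729). HAC1 (PDE_01436), the activator of the unfolded protein response, was at a log2 change of -0.09 (adjusted p = 0.673). The list also drew in PDE_04017 (0.21) and PDE_04252 (0.11), annotated as polyketide and peptide synthases, and neither was called.

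The exception in that list was BrlA (PDE_00087), the activator that starts conidium formation in Aspergillus and Penicillium. It had 10.8, 14.7 and 14.5 RPKM in dPoClrC and 5.71, 1.77 and 3.51 RPKM in dCA (1.60 ± 0.26, adjusted p = 0.00126), and all dPoClrC libraries were above all dCA libraries. In dPoflbC it stood higher still, at 72.1, 70.8 and 82.3 RPKM. In such bulk RNA a change in the share of conidium-forming cells and a change in RNA per cell cannot be told apart. FlbD (PDE_03008), which acts upstream of brlA in Aspergillus, had 45.9, 48.4 and 55.3 RPKM in dPoClrC and 57.8, 50.6 and 51.0 RPKM in dCA (-0.40, adjusted p = 0.0204). A second gene annotated as BrlA, PDE_00079, was too low to be tested. Among 27 tested transcription factors with a description, BrlA was the 1 that rose, and the 1 that fell was mitochondrial transcription factor 1 (PDE_01893, -1.08), whose call ended without dCA replicate 2 (-0.95) and without scaling (-0.76). Each share was 3.70%, against 5.69% higher and 7.35% lower over all genes. The most abundant of these factors, MADS-box factor PDE_03353, was at a log2 change of -0.17 (adjusted p = 0.262).

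Ribosomal protein genes were the list with the largest share of calls among those with 10 or more tested members. That share was 90.8%, all of it higher, against 5.69% of all genes. Of 77 with eukaryotic-type names, which belong to the cytosolic ribosome, 76 were tested, 69 rose and none fell in edgeR, DESeq2 or limma, nor was any lower at an unadjusted p under 0.05. Their median change was 1.59, and the changes lay between -0.03 and 1.93. Their reads made up 2.28, 2.10 and 1.71% of the dPoClrC libraries and 0.899, 0.306 and 0.678% of the dCA libraries, and the median gene stood at 597, 520 and 446 RPKM in dPoClrC and 209, 65.3 and 163 RPKM in dCA. The strains did not overlap, and dCA replicate 2 was the lowest library. Without it 65 rose, and without scaling 73 did.

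The most changed genes of the list were alike in size. S2e (PDE_05983), of the small subunit, had 359.6, 328 and 265 RPKM in dPoClrC and 105, 26.3 and 81.0 RPKM in dCA (1.93 ± 0.31, adjusted p = 0.00132). L38e (PDE_05635), of the large subunit, had 466, 502 and 309 RPKM in dPoClrC and 145, 38.9 and 110.4 RPKM in dCA (1.87 ± 0.30, adjusted p = 0.00125). SAe (PDE_05108, 1.87) and L27e (PDE_02599, 1.84) changed by about as much. The most abundant member, S25e (PDE_00106), had 2148, 2149.7 and 1724 RPKM in dPoClrC and 1209, 664 and 992 RPKM in dCA, and its change of 0.79 was under the fold threshold (adjusted p = 0.00319).

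Among 46 ribosomal proteins with other names, some of which belong to mitochondria, 3 rose and none fell in edgeR, DESeq2 or limma (1 was lower at an unadjusted p under 0.05), and the median change was 0.21. The share that rose, 6.52%, was near the 5.69% of all genes. The genes that rose were the stalk proteins of the cytosolic ribosome, LP1 (PDE_02590, 1.85), LP2 (PDE_03779, 1.53) and LP0 (PDE_02971, 1.46). Ribosome biogenesis and rRNA processing, which build the particle, held a single call. Of 97 genes 1 rose and none fell in edgeR, DESeq2 or limma (4 were lower at an unadjusted p under 0.05), and the median change was 0.29. The share that rose was 1.03%, against 5.69% of all genes. The biogenesis gene that rose was rRNA-processing protein 7 (PDE_05864, 1.03), which was not called without dCA replicate 2 (0.78). The most abundant gene of the list, PDE_07632, was at a log2 change of -0.16 (adjusted p = 0.442). Without scaling 13 of the list rose.

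Translation factors and tRNA synthetases held 90 tested genes, with a median change of 0.16. Of these 1 fell (1.11%, against 7.35% of all genes) and none rose in edgeR or DESeq2 (5.69% of all genes). At an unadjusted p under 0.05, 30 of the 90 were higher, and limma on log2(RPKM + 1) called 3 higher. Elongation factor 1-alpha (PDE_02596), which brings aminoacyl-tRNA to the ribosome, had 3303, 2948 and 3119.9 RPKM in dPoClrC and 2096, 789 and 1637 RPKM in dCA (0.79, adjusted p = 0.0253) and was under the fold threshold. The gene that fell was a tyrosyl-tRNA synthetase (PDE_00455), at 134, 145 and 123 RPKM in dPoClrC and 315, 3761 and 374 RPKM in dCA (-3.98). Its dCA value was far higher in replicate 2, and without that library the change was -1.54. DESeq2 did not call it (-3.94), which includes the case that it gave no adjusted p.

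**Figure D3:**
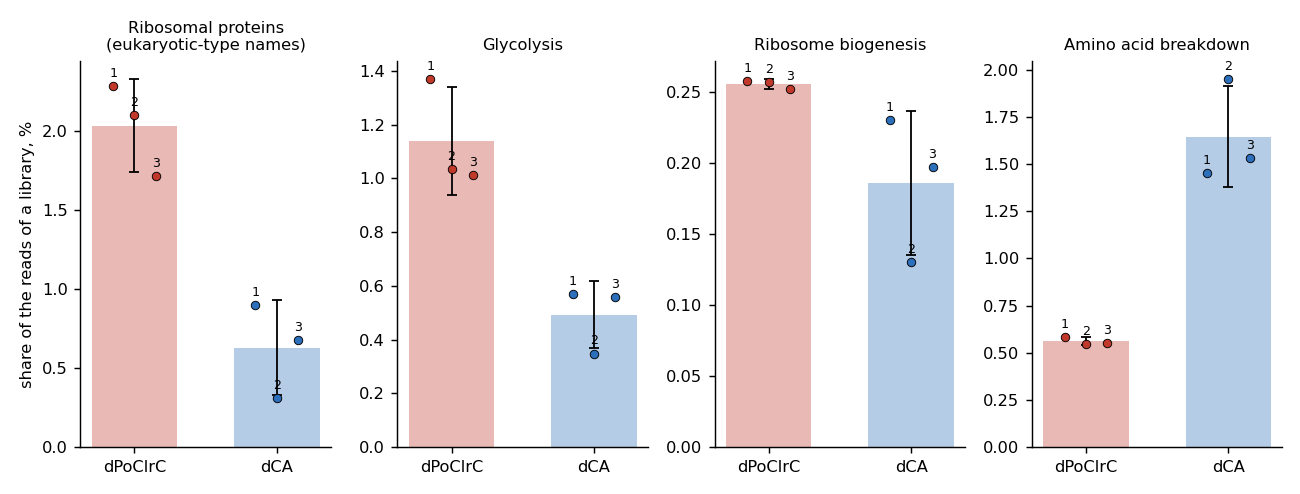
Share of each library's reads, in %, taken by 4 gene lists in dPoClrC (red, left) and dCA (blue, right); points are single libraries with their replicate number, bars the mean and whiskers the SD of 3 libraries. Ribosomal proteins took 1.71 to 2.28% of the dPoClrC reads and 0.306 to 0.899% of the dCA reads, while amino acid breakdown took 0.545 to 0.585% in dPoClrC and 1.46 to 1.95% in dCA.

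Glycolysis also held more higher than lower genes in dPoClrC. Of 20 listed, 19 were tested, 5 rose and 1 fell, the median change was 0.74, and 16 lay above 0. The shares were 26.3% and 5.26%, against 5.69% and 7.35% of all genes. Reads of the glycolysis list made up 1.37, 1.03 and 1.01% of the dPoClrC libraries and 0.571, 0.348 and 0.558% of the dCA libraries. Glyceraldehyde 3-phosphate dehydrogenase (PDE_04588), at the oxidative step of the pathway, had 716, 284 and 258 RPKM in dPoClrC and 35.1, 19.4 and 47.7 RPKM in dCA (3.34 ± 0.40, adjusted p = 0.000258), with the highest value in dPoClrC replicate 1. Aldolase (PDE_04802), the most abundant member, which splits the hexose, had 4847, 3202 and 3198 RPKM in dPoClrC and 1391, 951 and 1465 RPKM in dCA (1.27 ± 0.21, adjusted p = 0.00138). Neither gene overlapped between the strains. Hexokinase PDE_03526, which phosphorylates glucose, changed by 1.69, enolase (PDE_02546) by 1.35 and phosphoglycerate kinase (PDE_07158) by 1.23, all upward. A second hexokinase, PDE_00878, went the other way, with 28.6, 27.4 and 29.2 RPKM in dPoClrC and 42.4, 54.7 and 39.4 RPKM in dCA (-1.03), and its change was -0.70 without dCA replicate 2. The number that rose was 8 without dCA replicate 1 and 10 without scaling.

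Genes for the use of acetate, fatty acids and propionate held more lower than higher ones. Of 27 tested in gluconeogenesis, the glyoxylate cycle, fatty acid breakdown and propionate breakdown, 5 fell and 1 rose, and the median change was -0.21. The shares were 18.5% and 3.70%, against 7.35% and 5.69% of all genes. Methylisocitrate lyase (PDE_06062), the last enzyme of the methylcitrate cycle that consumes propionyl-CoA, had 3311, 3739 and 2861 RPKM in dPoClrC and 13004, 29969.8 and 28507 RPKM in dCA (-3.21 ± 0.44, adjusted p = 0.000567). It was also the most abundant gene of the list, and the strains did not overlap. Acyl-CoA oxidase (PDE_02167), the first step of peroxisomal beta-oxidation, had 18.7, 12.9 and 13.0 RPKM in dPoClrC and 39.8, 73.7 and 46.1 RPKM in dCA (-2.21, adjusted p = 0.00124). Carnitine O-acetyltransferase (PDE_00666), which moves acetyl groups between compartments, had 127, 121 and 134 RPKM in dPoClrC and 254, 492 and 499 RPKM in dCA (-2.06, adjusted p = 0.000587). The glyoxylate enzymes were less even among libraries. Malate synthase (PDE_03483) had 511, 331 and 272 RPKM in dPoClrC and 402, 1281 and 1203 RPKM in dCA (-1.75, adjusted p = 0.0126), and isocitrate lyase (PDE_08297) had 945, 607 and 473 RPKM in dPoClrC and 588, 1873 and 1501 RPKM in dCA (-1.36, adjusted p = 0.0392). Both overlapped between the strains, malate synthase was not called without dPoClrC replicate 2 or 3, and isocitrate lyase was not called without dCA replicate 2 (-0.82). The gene that rose was an acetyl-CoA synthetase, PDE_01716 (1.496), whose levels overlapped and which was not called without dCA replicate 2 (1.11).

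The tricarboxylic acid cycle and the respiratory chain held few calls. Of the cycle list 3.57% rose and 3.57% fell, and of the respiratory list 2.82% and 1.41%, against 5.69% and 7.35% of all genes. Of 28 genes of the cycle and its entry, 1 rose, the pyruvate dehydrogenase E2 component (PDE_02152, 1.46, adjusted p = 0.000598), and 1 fell, pyruvate carboxylase (PDE_05651, -1.58, adjusted p = 0.00351), which refills oxaloacetate. The median change was 0.21, and the most abundant gene, succinate dehydrogenase subunit PDE_09195, was at a log2 change of -0.35 (adjusted p = 0.0627). Of 71 respiratory genes, 2 rose and 1 fell, with a median change of 0.09. ATP synthase subunit c (PDE_07836) had 526, 438 and 394 RPKM in dPoClrC and 148, 44.5 and 96.8 RPKM in dCA (1.98 ± 0.27, adjusted p = 0.000556). Subunit alpha (PDE_01144) had 8.83, 5.93 and 5.79 RPKM in dPoClrC and 2.59, 1.22 and 1.85 RPKM in dCA (1.57, adjusted p = 0.00196). By annotation these subunits belong to the rotor and to the catalytic head of ATP synthase. PDE_01144 was low beside the median respiratory gene, at 228 to 281 RPKM in dPoClrC. Limma on log2(RPKM + 5) did not call it (0.78). Whether PDE_01144 is the main gene for subunit alpha was not tested. A complex I assembly factor fell (PDE_08330, -1.49), and subunit j (PDE_05418), the most abundant, was at a log2 change of -0.10 (adjusted p = 0.47). A mitochondrial oxoglutarate carrier outside these lists (PDE_08879) was among the 12 highest described genes, with 1846, 1489.9 and 1441 RPKM in dPoClrC and 328, 178 and 282 RPKM in dCA (2.32, adjusted p = 2.62e-05).

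Many genes of amino acid breakdown were lower in dPoClrC. Of 32 listed, 31 were tested, 12 fell and 1 rose, and the median change was -0.99, or -0.29 without dCA replicate 2, when 11 fell. The shares were 38.7% and 3.23%, against 7.35% and 5.69% of all genes. The list took 0.585, 0.545 and 0.551% of the reads in dPoClrC and 1.46, 1.95 and 1.53% in dCA. The falls included the routes for tyrosine, tryptophan and branched-chain amino acids. In the tyrosine route, 4-hydroxyphenylpyruvate dioxygenase (PDE_09761), which makes homogentisate, had 519, 662 and 617 RPKM in dPoClrC and 5020.0, 3532 and 5191 RPKM in dCA (-3.23 ± 0.18, adjusted p = 2.89e-06). Homogentisate 1,2-dioxygenase (PDE_08906), which opens its ring, had 106, 91.2 and 108 RPKM in dPoClrC and 609, 2151 and 368 RPKM in dCA (-3.82 ± 0.70, adjusted p = 0.00245). Maleylacetoacetate isomerase (PDE_08908), the next step, had 4.58, 3.57 and 5.28 RPKM in dPoClrC and 72.6, 202 and 22.2 RPKM in dCA (-4.90 ± 0.86, adjusted p = 0.00204). All dCA libraries were above all dPoClrC libraries in these genes. Replicate 2 stood above the other dCA libraries in the homogentisate genes, whose changes without it were -2.43 and -3.54, and not in PDE_09761 (-3.26).

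In the tryptophan route, indoleamine 2,3-dioxygenase (PDE_05907), the first step, had 14.5, 9.02 and 6.37 RPKM in dPoClrC and 51.7, 326 and 58.2 RPKM in dCA (-4.35, adjusted p = 0.00276; -2.64 without dCA replicate 2). Kynureninase (PDE_02455), further down, changed by -1.53 (adjusted p = 0.000537). In leucine breakdown, isovaleryl-CoA dehydrogenase (PDE_09757) had 56.0, 44.5 and 45.7 RPKM in dPoClrC and 112, 422 and 89.1 RPKM in dCA (-2.54, adjusted p = 0.00894; -1.21 without dCA replicate 2). Branched-chain aminotransferase PDE_01215, which lies in a run with fatty acid synthase genes given below, changed by -2.84 (adjusted p = 0.000417). A second one, PDE_09053, changed by -1.88 and was not called without dCA replicate 2 (-0.94). Whether these aminotransferases serve leucine breakdown here was not tested. Arginase (PDE_04772), which releases urea from arginine, had 22.8, 19.4 and 21.8 RPKM in dPoClrC and 71.1, 131 and 94.9 RPKM in dCA (-2.58, adjusted p = 0.000183). The described members of these routes other than PDE_05907, PDE_08906, PDE_08908 and PDE_09761 were named after their values were seen.

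Amino acid synthesis had no common direction. Of 65 tested, 5 rose and 6 fell, and the median change was 0.15. These shares, 7.69% and 9.23%, were near those of all genes, 5.69% and 7.35%. The highest was 3-dehydroquinate synthase PDE_00008, an enzyme type of the shikimate pathway, with 1547, 2275 and 2178 RPKM in dPoClrC and 242, 20.9 and 144 RPKM in dCA (3.69 ± 0.61, adjusted p = 0.00146). Catechol O-methyltransferase PDE_00009, the next locus number, was also among the 12 highest described genes, with 709.5, 845 and 778 RPKM in dPoClrC and 203, 31.1 and 138 RPKM in dCA (2.43, adjusted p = 0.00201). In both genes dCA replicate 2 was the lowest library and no levels overlapped. The falls included a tryptophan synthase beta chain (PDE_01370, -3.53; -2.31 without dCA replicate 2) and the enzymes that pass sulfur between homocysteine and cysteine, cystathionine gamma-lyase (PDE_00928, -2.85) and cystathionine beta-synthase (PDE_04031, -2.84; -1.47 without dCA replicate 2).

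Genes for nitrogen uptake had calls in both directions. Of 26 tested genes for nitrogen and amino acid transport and nitrate reduction, 2 rose and 3 fell, and the median change was 0.17. The shares were 7.69% and 11.5%, against 5.69% and 7.35% of all genes. Nitrite reductase (PDE_00370), which makes ammonium, had 15.1, 10.8 and 7.96 RPKM in dPoClrC and 0.801, 0.661 and 1.47 RPKM in dCA (3.21 ± 0.34, adjusted p = 0.000125). Nitrate reductase (PDE_02461), the step before it, had 3.32, 3.25 and 4.85 RPKM in dPoClrC and 1.07, 0.469 and 0.802 RPKM in dCA (2.003 ± 0.33, adjusted p = 0.00134). These were the 2 that rose, and in neither did the strains overlap; limma on log2(RPKM + 5) did not call the reductase PDE_02461 (0.60). Amino acid transporters PDE_09143 (-2.23, adjusted p = 4.60e-05) and PDE_06018 (-1.67, adjusted p = 0.00057) fell, and the most abundant one, PDE_04432, was not called (-0.56, adjusted p = 0.0469).

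Iron uptake and thiamine synthesis each held a strongly higher gene. All 4 iron genes had changes above 0, and 2 rose (50%, against 5.69% of all genes). Siderophore transporter PDE_04184, which imports iron bound to a siderophore, had 179, 153 and 138 RPKM in dPoClrC and 16.7, 5.38 and 17.7 RPKM in dCA (3.31 ± 0.33, adjusted p = 9.83e-05). Ferric-chelate reductase PDE_08755 (1.09) was not called without dCA replicate 2 (0.93), and high-affinity iron transporter PDE_07611, the most abundant, was at a log2 change of 0.54 (adjusted p = 0.0506). Thiamine thiazole synthase (PDE_07008), which makes the thiazole ring of vitamin B1, had 4789.8, 4259 and 5657 RPKM in dPoClrC and 1384, 785 and 1508 RPKM in dCA (1.72 ± 0.21, adjusted p = 0.000274). It was the 1 of 5 thiamine genes (20%) that rose, and the most abundant one, PDE_09900, was not called (0.46, adjusted p = 0.0703).

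Protein quality control held few calls. Of 43 genes for protein folding and secretion none was called in edgeR, DESeq2 or limma, with 5 higher and 7 lower at an unadjusted p under 0.05 (median 0.05), and protein disulfide-isomerase PDE_06215, the most abundant, was at a log2 change of -0.26 (adjusted p = 0.231). Of 41 proteasome subunits 1 fell, regulatory subunit N6 (PDE_03903, -1.21), which was not called without scaling (-0.89), and alpha 2 (PDE_02212) was at a log2 change of 0.09. Of 34 heat shock proteins and chaperones, 2 rose and 3 fell (5.88% and 8.82%, near the 5.69% and 7.35% of all genes). The mitochondrial chaperone BCS1 (PDE_03993), needed to assemble complex III, had 106, 84.9 and 65.2 RPKM in dPoClrC and 21.3, 5.50 and 16.04 RPKM in dCA (2.33, adjusted p = 0.000528). A small heat shock protein, PDE_00322, had 34.5, 21.7 and 29.6 RPKM in dPoClrC and 96.7, 101 and 79.6 RPKM in dCA (-2.03, adjusted p = 0.000619). The iron-sulfur cochaperone HscB (PDE_06289, -1.47) was not called without dCA replicate 2 (-0.87) and the Hsp70 PDE_08980 (-1.20) not without scaling (-0.91) or dCA replicate 3. HtpG (PDE_09149), the most abundant chaperone, was at a log2 change of -0.30 (adjusted p = 0.22).

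Among 58 peptidases outside the proteasome 3 rose and 5 fell, and the median change was -0.21. These shares, 5.17% and 8.62%, were near those of all genes, 5.69% and 7.35%. Carboxypeptidases PDE_00963 (2.21) and PDE_00005 (1.78) and aminopeptidase PDE_02146 (1.78), which all trim peptides from an end, were those that rose. Proline iminopeptidase PDE_08605 fell (-1.82, adjusted p = 0.000774), and saccharopepsin PDE_04768, the vacuolar aspartic peptidase and the most abundant of the list, was not called (-0.33, adjusted p = 0.142). Of 27 antioxidant genes 1 rose and 2 fell (3.70% and 7.41%), among the falls the glutathione S-transferase PDE_01194 given below. Peroxiredoxin PDE_08230 (1.10) and cytochrome c peroxidase PDE_05494 (-1.40) were not called without dCA replicate 2, at 0.96 and -0.60.

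Cell wall enzymes held 7 of 78 tested lower and 2 higher, with a median of -0.02. The shares were 8.97% and 2.56%, against 7.35% and 5.69% of all genes. Those that fell most were mannosyltransferases, which add mannose to wall proteins and glycans, PDE_08799 (-2.40), PDE_01685 (-2.13) and PDE_00070 (-2.10), and chitinase PDE_06566 (-1.79). Limma called PDE_06566 neither on log2(RPKM + 1) (-0.69) nor on log2(RPKM + 5) (-0.22). Beta-1,3-glucanosyltransferase PDE_06441, which remodels wall glucan and was the most abundant, was at a log2 change of 0.07 (adjusted p = 0.684). Neither the 48 genes for DNA replication, histones and cell cycle (median 0.01) nor the 41 protein kinases (median -0.04) held a call in edgeR. At an unadjusted p under 0.05, 6 of the replication genes were higher and 4 lower, and 7 of the kinases were higher and 11 lower, while DESeq2 called 1 replication gene higher. Histone H3 (PDE_00233) was at a log2 change of 0.01 and the p38 MAP kinase PDE_00126 one of 0.55.

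**Figure D4:**
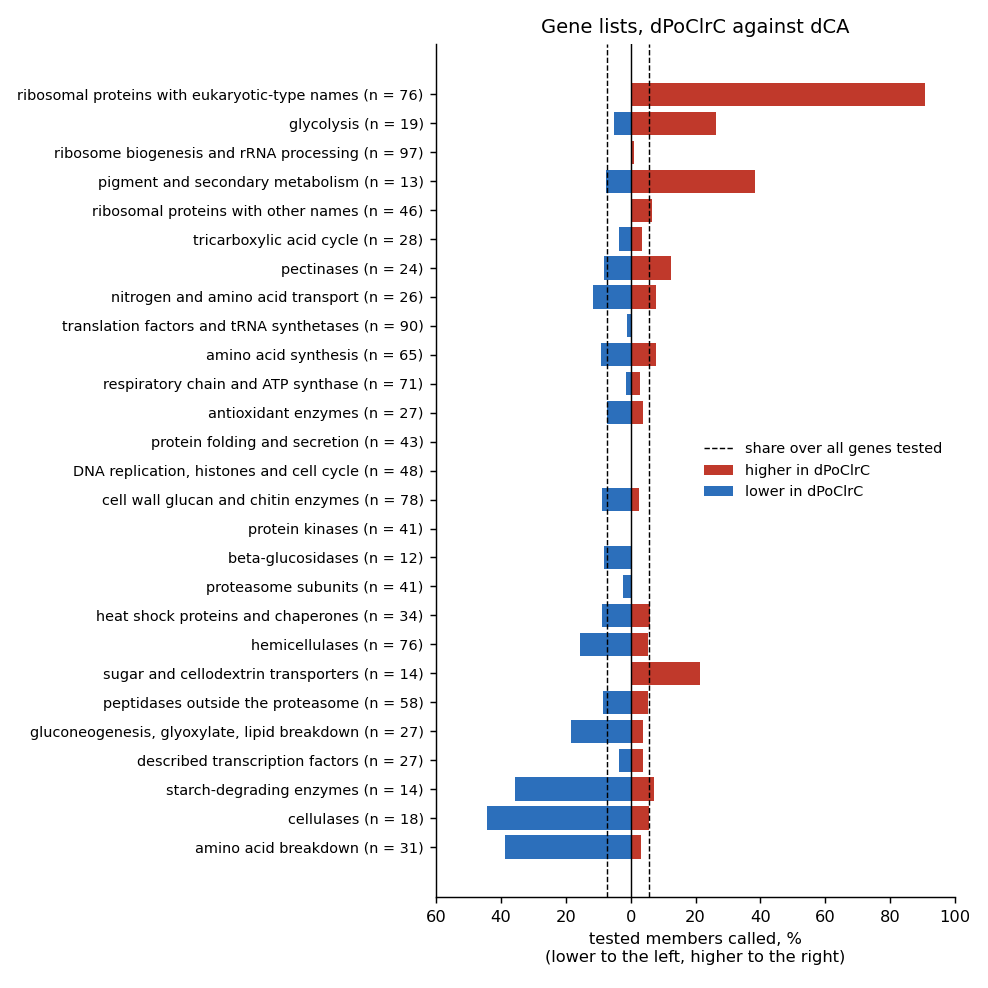
Share of the tested members of each gene list (10 or more tested members, number in brackets) called lower in dPoClrC (blue, to the left) or higher (red, to the right), in %, ordered by the list's median log2 fold change. Dashed lines mark the shares over all genes, 7.35% lower and 5.69% higher; ribosomal proteins with 69 of 76 higher, and cellulases, amino acid breakdown and starch-degrading enzymes with 8 of 18, 12 of 31 and 5 of 14 lower, reach farthest past them.

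Pigment and secondary metabolism held more higher than lower genes. Of 15 listed, 13 were tested, 5 rose and 1 fell (3 without dCA replicate 2), and the median change was 0.22. The shares were 38.5% and 7.69%, against 5.69% and 7.35% of all genes. The polyketide synthase for a naphtho-gamma-pyrone (PDE_09491), a kind of conidial pigment precursor in Aspergillus, was barely expressed, with 0.670, 1.09 and 1.46 RPKM in dPoClrC and 0.264, 0.0841 and 0.2498 RPKM in dCA (2.14, adjusted p = 0.00545). Scytalone dehydratase (PDE_04496), of the melanin pathway and the most abundant of the list, had 286, 518 and 466 RPKM in dPoClrC and 189, 40.05 and 132 RPKM in dCA (1.59, adjusted p = 0.00996). Tyrosinases, which oxidise phenols on the way to melanin, rose too, PDE_03554 by 1.999 and PDE_04260 by 1.91. A tetrahydroxynaphthalene reductase, an enzyme type of the same melanin pathway, was among the 12 lowest described genes (PDE_09239), with 2.23, 2.33 and 5.05 RPKM in dPoClrC and 171, 12.2 and 38.6 RPKM in dCA (-4.71, adjusted p = 0.00214).

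Called genes also stood beside each other in locus number, which was looked at after the values were seen. No positions come with the table, so the numbering alone was used. In runs of 4 or more consecutive numbers called in the same direction lay 141 of the 1132 called genes (12.5%), in 25 runs, 10 of them higher with 61 genes and 15 lower with 80 genes. Without dCA replicate 2 there were 19 such runs with 121 of 923 called genes, and 15 of the 25 runs kept the call of every gene. The longest, PDE_09999 to PDE_10010, held 12 genes, all higher by 1.51 to 2.64. Its median gene stood at 34.7, 59.5 and 46.7 RPKM in dPoClrC and 14.4, 3.17 and 6.57 RPKM in dCA. Its described genes belong to indole diterpene and related mycotoxin chemistry, with paspaline synthase (PDE_10000, 1.87), geranylgeranyl diphosphate synthase (PDE_10001, 2.30), verruculogen synthase (PDE_10009, 2.41) and a FAD dependent monooxygenase (PDE_09999, 2.64). In PDE_10001 the levels were 35.4, 53.3 and 40.5 RPKM in dPoClrC and 14.1, 2.29 and 5.90 RPKM in dCA, with no overlap.

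A second run, PDE_01064 to PDE_01071, held 8 genes, all higher. Among them were brevianamide F synthase (PDE_01071, 1.73), a prenyltransferase of cyclic dipeptides (PDE_01066, 1.94) and fumitremorgin C monooxygenase (PDE_01064, 1.99). PDE_01071, which joins tryptophan and proline, was barely expressed, with 0.291, 0.501 and 0.665 RPKM in dPoClrC and 0.194, 0.0378 and 0.131 RPKM in dCA. PDE_01066 had 167, 218 and 163 RPKM in dPoClrC and 65.1, 18.3 and 36.7 RPKM in dCA. Genes for carotenoids lay in PDE_08070 to PDE_08073, where phytoene desaturases PDE_08070 (2.06) and PDE_08072 (1.20) and the phytoene synthase and lycopene cyclase PDE_08071 (1.67) all rose. A run of 8 without any description, PDE_00802 to PDE_00809, rose by 2.11 to 2.50, and its median gene stood at 24.2, 36.8 and 43.3 RPKM in dPoClrC and 10.1, 2.50 and 5.52 RPKM in dCA.

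Among the runs that fell, PDE_01212 to PDE_01220 held 9 genes, at 171, 103 and 90.8 RPKM in dPoClrC and 431, 586 and 574 RPKM in dCA for the median gene. It includes the alpha and beta subunits of a fungal fatty acid synthase, PDE_01217 (-3.16) and PDE_01220 (-2.16), which form 1 enzyme, and the aminotransferase PDE_01215. The remaining described gene, PDE_01213 (-2.81), was annotated as N-acetyl-gamma-glutamyl-phosphate reductase and acetylglutamate kinase. PDE_01217 had 111, 66.6 and 48.3 RPKM in dPoClrC and 431, 586 and 574 RPKM in dCA. The run PDE_09196 to PDE_09202 held a hybrid polyketide and peptide synthase annotated as aspyridone synthetase (PDE_09198, -1.28), its enoyl reductase (PDE_09201, -5.78), cytochrome P450 monooxygenase PDE_09199 (-7.03) and FAD-dependent monooxygenase PDE_09200 (-4.38). PDE_09201 had 0.279, 0.672 and 0.540 RPKM in dPoClrC and 27.2, 11.2 and 32.4 RPKM in dCA, so it was nearly silent in dPoClrC. Tyrosine and leucine breakdown made up most of PDE_09756 to PDE_09761, with 6 genes at -3.23 to -2.10. Without dCA replicate 2 they lay at -3.26 to -0.89, PDE_09756 (-2.10; -0.89) was not called, and PDE_09757 was at -1.21, against -2.54 with it. The homogentisate enzymes sat in PDE_08906 to PDE_08909, where PDE_08909 (-1.64; -0.71) was not called without that library. Cel45A and Cel7B lay in the run PDE_07927 to PDE_07930, beside the peptidase aspergillopepsin I (PDE_07927, -1.09).

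**Figure D5:**
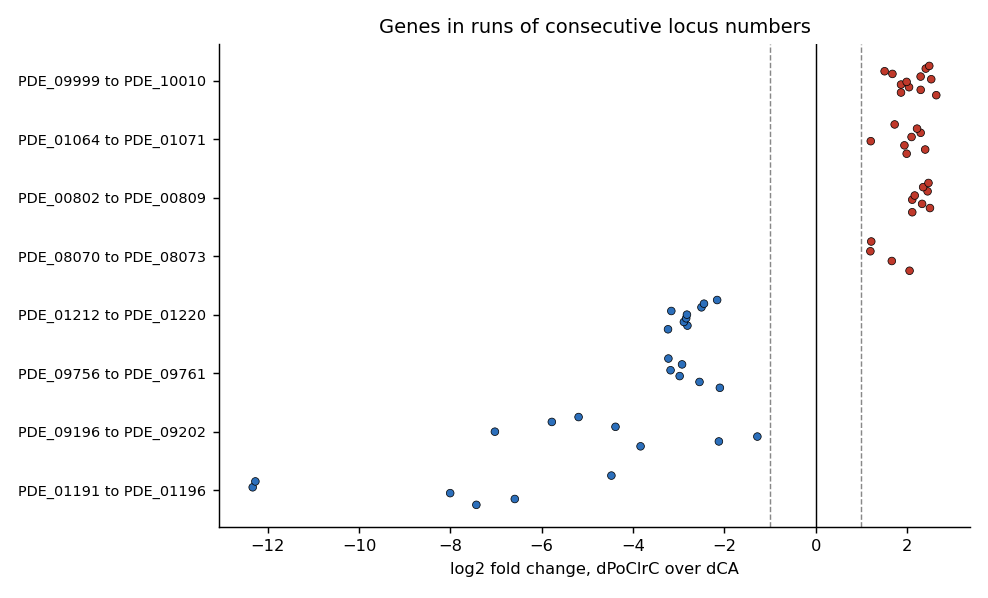
Log2 fold change (x axis, dPoClrC over dCA) of each gene in 8 of the 25 runs of consecutive locus numbers (one row per run, red higher and blue lower in dPoClrC); dashed lines mark a change of 1 in either direction. The genes of PDE_09999 to PDE_10010 lie between 1.51 and 2.64, those of PDE_01212 to PDE_01220 between -3.23 and -2.16, and those of PDE_01191 to PDE_01196 between -12.33 and -4.47 (-8.86 and -4.10 without dCA replicate 2).

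Several of the lowest described genes were far higher in dCA replicate 2 than in the other dCA libraries. Glutathione S-transferase PDE_01194, which couples glutathione to foreign compounds, had 4.99, 4.18 and 6.10 RPKM in dPoClrC and 1667, 50039.6 and 2537 RPKM in dCA (-12.33; -8.86 without dCA replicate 2). Its neighbour in number, the undescribed PDE_01195, had 1.72, 1.25 and 1.74 RPKM in dPoClrC and 534, 14805 and 712 RPKM in dCA (-12.27; -8.81 without that library). In both the other dCA libraries were also far above dPoClrC, and DESeq2 called neither (-12.30 and -12.24). It gave 22 of the 8681 tested genes no adjusted p, and such genes counted as not called. Whether the genes that DESeq2 did not call here were among them was not looked at. 4-nitrophenyl phosphatase PDE_01189 (-10.94; -7.87), chitosanase PDE_08733 (-6.87; -2.54), 3-hydroxyphenylacetate 6-hydroxylase PDE_04228 (-5.88; -3.89), salicylate hydroxylase PDE_07956 (-5.57; -3.69) and glycerate dehydrogenase PDE_03282 (-5.02; -2.58) showed the same drop in size without that library, the second value in each bracket, and all stayed called. DESeq2 gave PDE_01189, PDE_08733 and PDE_07956 changes of -10.91, -6.86 and -5.54 but did not call them, and PDE_08733 was not called without dPoClrC replicate 2 either (-6.96). Over all calls, dCA replicate 2 was more than 5 times above both other dCA libraries in 34 of the 638 lower genes, and more than 5 times below both in 10 of the 494 higher ones.

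Highest among described genes not yet given was salicylate synthetase PDE_03182, which makes salicylate from chorismate, with 4.24, 20.02 and 11.9 RPKM in dPoClrC and 2.78, 0.203 and 1.71 RPKM in dCA (2.71, adjusted p = 0.0115). It was not called without dPoClrC replicate 2. The 3 highest undescribed genes were PDE_03469 (3.23), PDE_03955 (3.21) and PDE_01074 (3.11). PDE_03469 had 9.95, 14.8 and 22.3 RPKM in dPoClrC and 2.005, 0.474 and 1.67 RPKM in dCA, with every dPoClrC library above every dCA library.

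Against dPoflbC, dPoClrC was called higher in 1179 genes (13.6%) and lower in 786 (9.05%), together 22.6% of those tested. Of 18 cellulases tested 10 were called higher in dPoClrC, and of 14 starch-degrading enzymes 8 were. Of 76 hemicellulases 49 were higher and 2 lower. Cel7B, for instance, had 311, 453 and 490.2 RPKM in dPoClrC and 43.8, 60.1 and 95.4 RPKM in dPoflbC (PDE_07929, 2.93, adjusted p = 6.48e-05). Ribosomal proteins with eukaryotic-type names gave only 4 lower of 76 (median -0.77), not above the 9.05% of all genes. Ribosome biogenesis gave 50 lower of 97. Cellulases took 0.322 to 0.458% of the reads in dPoClrC, 0.642 to 1.24% in dCA and 0.179 to 0.223% in dPoflbC, and these ribosomal proteins 1.71 to 2.28% in dPoClrC, 0.306 to 0.899% in dCA and 3.92 to 4.14% in dPoflbC. In both lists the dPoClrC libraries lay between those of the other strains. The comparisons share the dPoClrC libraries.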

How the data were processed

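RNA was sequenced from 9 mycelial cultures, and the 6 libraries of dPoClrC and dCA are compared here. Per the file headers, the authors deposited read counts per gene (unique reads, whole numbers) and RPKM, in which each gene's reads are divided by its coding length (kilobases) and by the library's total in M reads. CASAVA 1.8 is named in the submitters' processing notes; aligner, counting tool, genome build and gene positions were not given in the sources used here. A dash in the counts was read as 0. The 9 deposited columns of coverage in percent were not used. The reference table matched 0 of the 9786 gene IDs, so names come from the deposited descriptions and KEGG entries, which are informative for 3528 genes. Strandedness is not given, so overlapping genes could share reads, and reads of near-identical genes could be split between them.

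Counts were kept by filterByExpr (8681 genes), scaled by TMM and fitted in edgeR 4.0.16 (R 4.3.3; glmQLFit, glmQLFTest, two-sided) with all 9 libraries, 1 mean per strain and no replicate block. A call needed a Benjamini-Hochberg adjusted p under 0.05 and an absolute log2 fold change of 1. The SE given is the absolute log2 fold change divided by the square root of the F statistic. The procedure was tested on simulated data. Levels overlap or not by RPKM divided by the TMM factor. Alternatives were the 6 libraries alone, no scaling, DESeq2 size factors, no filter, DESeq2 1.42.0, limma 3.58.1 on log2(RPKM + 1) and log2(RPKM + 5), each library left out, and a replicate block.

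The compared strains, the 31 gene lists (search words on descriptions, trimmed after their annotation was read) and the named genes were chosen with earlier results of these data known. Named were, among annotated called genes, the 12 highest and the 12 lowest with a mean of 10 RPKM or more in the higher strain and no overlap, the 4 most changed called genes and the most abundant gene of each list, all cellulases, beta-glucosidases, sugar transporters, regulators and conidiation genes, 3 genes in each direction without annotation, and the genes nearest each threshold. Other genes named in the report were chosen after their values were seen, as were the runs of locus numbers. Replicates are labelled biological triplicates; whether same-numbered cultures shared a day is not given.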

Additional observations from a re-analysis of the deposited data

How the results depend on the processing

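In dPoClrC against dCA no called gene was called in the opposite direction under any alternative run. Without scaling 887 genes were higher and limma on log2(RPKM + 1) gave 760; the lower genes numbered 413 with that limma setting and 331 with log2(RPKM + 5). Against dPoflbC, limma on log2(RPKM + 5) gave 665 higher genes and no scaling 1289 lower ones. Hemicellulases that rose numbered 12 without scaling, 8 with limma on log2(RPKM + 1) and 2 to 7 when 1 library was left out; those that fell numbered 7 without scaling and with both limma settings. Starch enzymes that fell numbered 3 under the same 3 settings. Glycolytic genes that rose numbered 10 without scaling and with limma on log2(RPKM + 1), 9 with log2(RPKM + 5), and 5 to 8 when 1 library was left out. RPKM is not TMM-scaled, so the limma settings share the shift of no scaling.

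Leaving out 1 library gave 923 (without dCA replicate 2) to 1339 calls (without dCA replicate 1) in dPoClrC against dCA. With a replicate block 1096 genes were called, 1084 of them shared with the 1132; same-numbered deviations correlated at -0.18, -0.10 and -0.03 between dPoClrC and dCA. Between dPoClrC and dPoflbC they correlated at 0.11, 0.10 and 0.07, each above the other numbers, a hint from the data and not the design, and the block gave 1966 calls there against 1965. Of 107 named called genes, DESeq2 did not call 6. It gave 22 of all tested genes no adjusted p, which counted as not called. Limma on log2(RPKM + 5) did not call 18 named genes, among them nitrate reductase PDE_02461 (0.60) and the polyketide synthase PDE_09491 (0.22). Depth limits genes near the floor of 3 reads, such as PDE_05193 and PDE_09233.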
